A study of Mus musculus with 2 samples.

Results

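Runx3 peaks were examined at 4 loci of the transforming growth factor beta (TGF-beta) pathway in mouse natural killer (NK) cells. The loci are windows of the mm9 genome drawn around Smad3 (chr9:63450000-63650000), Smad7 (chr18:75450000-75600000), Tgfbr2 (chr9:115950000-116130000) and Tgfbr1 (chr4:47320000-47480000), and a peak belongs to a window when its midpoint lies inside. They held 34 of the 19647 Runx3 peaks listed for this experiment (0.173%), with 18 in the Smad3 window, 9 at Smad7, 5 at Tgfbr2 and 2 at Tgfbr1. The list comes from 1 chromatin immunoprecipitation sequencing (ChIP-seq) library made with a home-made polyclonal antibody to Runx3, a Runt-domain transcription factor. A second library made with non-immune rabbit serum served as control and was not analysed here. Both came from splenic NK cells of wild-type ICR mice, an outbred stock, injected 2 times, 2 days apart, with interleukin-15 complexed to its receptor alpha chain. NK cells were enriched by negative selection and then sorted for the NK cell receptor NKp46. Neither antibody has a replicate library. The peaks were chosen by their listed positions, and the loci were proposed with results of this list known. Their number and spacing are therefore given as a description of the list, with no test. The list gives no height, score or read count, so the depth behind each peak is unknown, and the labelled cell type was not checked against marker genes.

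TGF-beta restrains NK cells, lowering their cytotoxicity and interferon-gamma production. The cytokine binds TGFBR2, a receptor kinase that recruits and phosphorylates the second receptor kinase, TGFBR1. TGFBR1 then phosphorylates SMAD2 and SMAD3, which enter the nucleus with SMAD4 and act on genes together with other factors, RUNX proteins among them. SMAD7 is induced by this signal and acts against it at the receptors. The 4 genes thus cover the receptors, a signal-carrying Smad and an inhibitory Smad.

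RUNX proteins bind a short core, TGTGGT or TGCGGT. The sequences under the peaks were not read here, because the reference tables are in another build (GRCm38.p6) than the peaks. The RefSeq promoter table in that build held 4 entries for 3 of the genes, and the 250 bases before the start of each were searched on both strands. TGTGGT occurred in 0 of these 4 entries and in 14.0% of all 32851 promoters. TGCGGT occurred in 0 of 4 and in 5.10% of all. The SMAD palindrome GTCTAGAC (0.167% of all promoters) and the ETS site CCGGAAGT (2.88%) also had no match in the 4. No match says only that these letters are not in these 250 bases. The shorter GTGGT, which is contained in TGTGGT and was chosen after these promoters had been read, occurred in 3 of the 4 entries and in 35.3% of all promoters. Both Tgfbr1 entries are among the 3. Because of that choice, no excess over all promoters can be read from these shares. The first listed promoter entry of each of the 3 genes follows, 5′ to 3′ on the gene's strand and ending just before the start, so that the letters searched can be seen. Capitals mark GTGGT or its reverse complement, ACCAC.
Smad3, GRCm38.p6 chr9:63757995-63758244, minus strand: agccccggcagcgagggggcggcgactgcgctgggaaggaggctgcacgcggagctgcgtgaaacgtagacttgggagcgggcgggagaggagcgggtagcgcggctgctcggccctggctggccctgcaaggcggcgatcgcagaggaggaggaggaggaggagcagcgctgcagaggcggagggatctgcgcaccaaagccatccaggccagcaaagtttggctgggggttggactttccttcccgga
Tgfbr2, GRCm38.p6 chr9:116175364-116175613, minus strand: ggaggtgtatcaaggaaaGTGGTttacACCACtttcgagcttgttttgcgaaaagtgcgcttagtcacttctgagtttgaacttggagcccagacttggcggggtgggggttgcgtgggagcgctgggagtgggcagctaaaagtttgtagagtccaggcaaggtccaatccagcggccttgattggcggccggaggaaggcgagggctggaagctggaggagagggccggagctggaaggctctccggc
Tgfbr1, GRCm38.p6 chr4:47352972-47353221, plus strand: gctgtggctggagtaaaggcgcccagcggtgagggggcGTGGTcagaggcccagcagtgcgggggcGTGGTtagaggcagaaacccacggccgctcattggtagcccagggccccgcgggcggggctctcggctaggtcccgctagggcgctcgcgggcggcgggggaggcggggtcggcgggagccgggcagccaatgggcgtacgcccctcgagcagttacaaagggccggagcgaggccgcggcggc
The Tgfbr2 promoter holds GTGGT and ACCAC 4 bases apart, the first Tgfbr1 entry holds GTGGT at 2 places, and the Smad3 promoter holds neither. The second Tgfbr1 entry, not printed here, holds ACCAC at 1 place. These positions cannot be set against the mm9 windows, and whether a peak covers a start site, exon or intron of the 4 genes was not analysed here. Gene order in the same RefSeq build places Aagab and Smad6 next to Smad3 among protein-coding genes, Dym and Ctif next to Smad7, Gadl1 and Rbms3 next to Tgfbr2, and Col15a1 and Alg2 next to Tgfbr1. A window may therefore also hold parts of a neighbouring gene.

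The Smad3 window was the most densely occupied of the 4, with 0.0900 peaks per kb, or 1 peak every 11.1 kb. Chromosome 9 as a whole carried 0.00900 peaks per kb. The ratio of the window's density to this had an exact 95% Poisson interval of 5.93 to 15.8. This interval covers counting error only and assumes independent peaks. Peaks of this list often lie close together, so it and the intervals at the other loci are likely too narrow. Relative to the density of the whole list the ratio was 11.7. Of 601 other windows of the same length laid end to end on chromosome 9, 1 held 18 peaks or more (0.166%), and that window held 19. The median of these windows was 0 peaks, and the median of the 289 windows with any peak was 3. Peaks covered 6.33% of the Smad3 window, against 0.607% of chromosome 9.

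The 18 peaks of the Smad3 window lay unevenly, as the map of peak positions shows. A single peak of 767 bp, chr9:63450046-63450812, lay at the lower edge with its midpoint 0.428 kb inside, and a stretch of 103300 bp without a peak followed it. The other 17 peaks all lay in the upper part of the window, 12 of them between 50% and 75% of its length and 5 beyond that. No peak was listed in the equal stretch below the window or in the one above it. The nearest peaks outside had their midpoints 203 kb below the lower edge and 371 kb above the upper one. The 17 peaks at Smad3 thus lay between long stretches without a listed peak. Such stretches were common on chromosome 9, where 312 of 601 other windows of 200 kb (51.9%) held no peak.

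**Figure D1:**
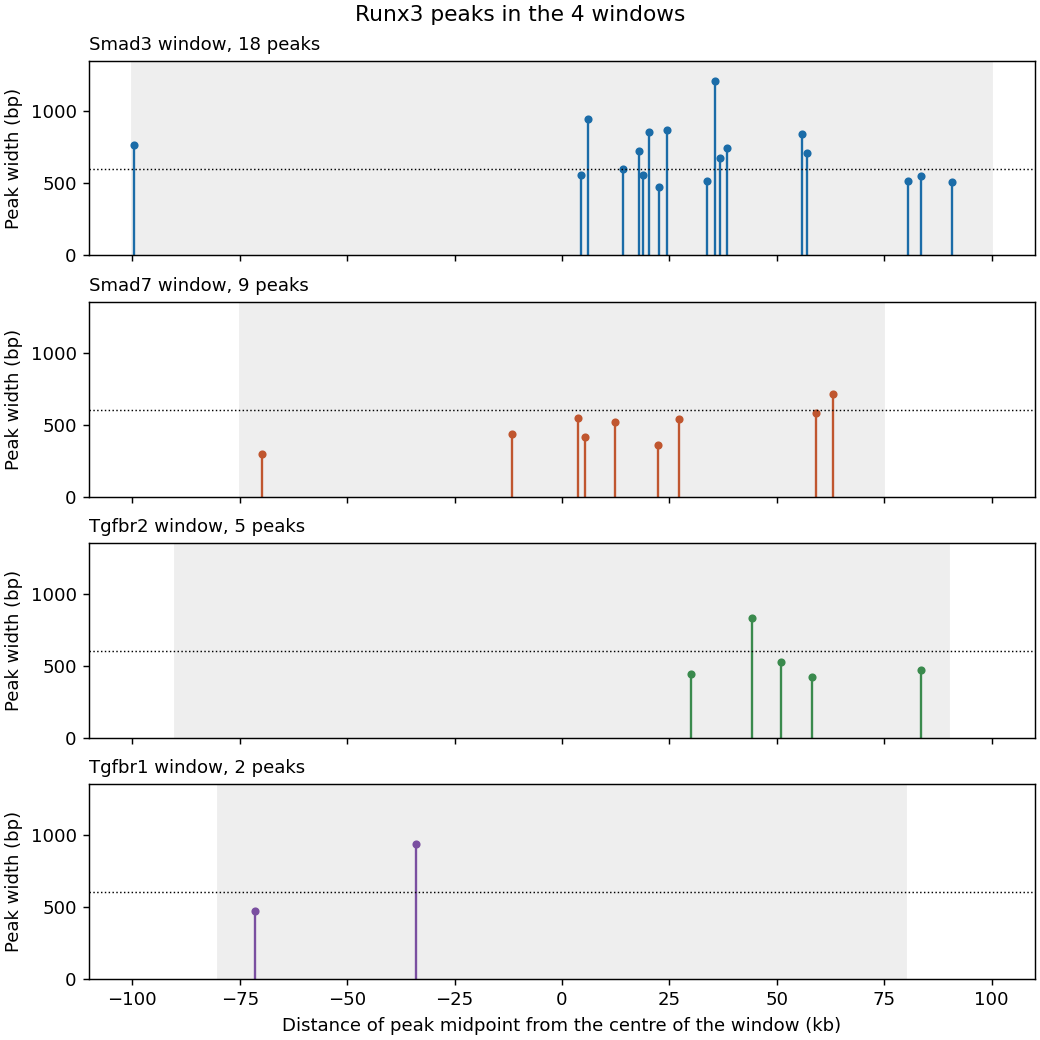
Runx3 peaks in the windows around Smad3, Smad7, Tgfbr2 and Tgfbr1. Each stem is 1 peak, placed by the distance of its midpoint from the window's centre (kb) and as high as the peak is wide (bp). Grey marks the window and the dotted line the median width of the whole list, 604 bp. At Smad3, 17 of 18 peaks lie above the centre, and at Tgfbr2 all 5 do.

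Of these 17 peaks, 12 formed a single chain, in which neighbouring midpoints are at most 10 kb apart. The chain ran from 63554113 to 63588897 on chromosome 9 and spanned 34.8 kb, of which peaks covered 25.2%. It opened with a close pair of 558 bp (chr9:63554113-63554670) and 947 bp (chr9:63555640-63556586), separated by 969 bp. After a gap of 7217 bp came 6 peaks within which no gap exceeded 3138 bp. The first 3 of them measured 599 bp (chr9:63563804-63564402), 726 bp (chr9:63567541-63568266) and 560 bp (chr9:63568515-63569074). The others measured 860 bp (chr9:63569853-63570712), 474 bp (chr9:63572428-63572901) and 872 bp (chr9:63574105-63574976).

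A gap of 8433 bp, the largest in the chain, separated these 6 from the last 4. The 4 measured 518 bp (chr9:63583410-63583927), 1215 bp (chr9:63585058-63586272), 678 bp (chr9:63586476-63587153) and 746 bp (chr9:63588152-63588897). The peak of 1215 bp was the widest of all 34, wider than 95.6% of the list, and it and the next peak were the closest pair, 203 bp apart. The chain thus consists of groups of 2, 6 and 4 peaks.

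The remaining 5 peaks at Smad3 lay above the chain. A pair of 844 bp (chr9:63605553-63606396) and 712 bp (chr9:63606775-63607486), 378 bp apart, came 16.7 kb after it. A chain of 3 narrower peaks closed the window, with 519 bp (chr9:63630350-63630868), 553 bp (chr9:63633303-63633855) and 513 bp (chr9:63640432-63640944). Close spacing was the rule here: 14 of the 17 neighbouring pairs in the window (82.4%) had midpoints within 10 kb, against 31.1% of neighbouring pairs on chromosome 9.

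Set against the rest of the list, the chain of 12 at Smad3 was the largest on chromosome 9, which held 192 chains of 2 peaks or more. In the whole list, 8 of 3700 chains had 12 peaks or more, the one at Smad3 included. None of the 601 other windows held a chain of 12 (0 of 601, 0%), and the largest chain in them had 10 peaks. The 1 window with more peaks than Smad3, 19, had a largest chain of 6. The Smad3 window thus ranked high in its number of peaks and in its largest chain. These ranks are not independent, since more peaks allow a larger chain. Only 1 other window had a count within 2 peaks of Smad3, so chaining beyond what the count brings was not tested. Fixed windows can cut a chain at their edges, whereas the Smad3 window was drawn around its locus, and the count of chromosome-wide chains is free of this difference.

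**Figure D2:**
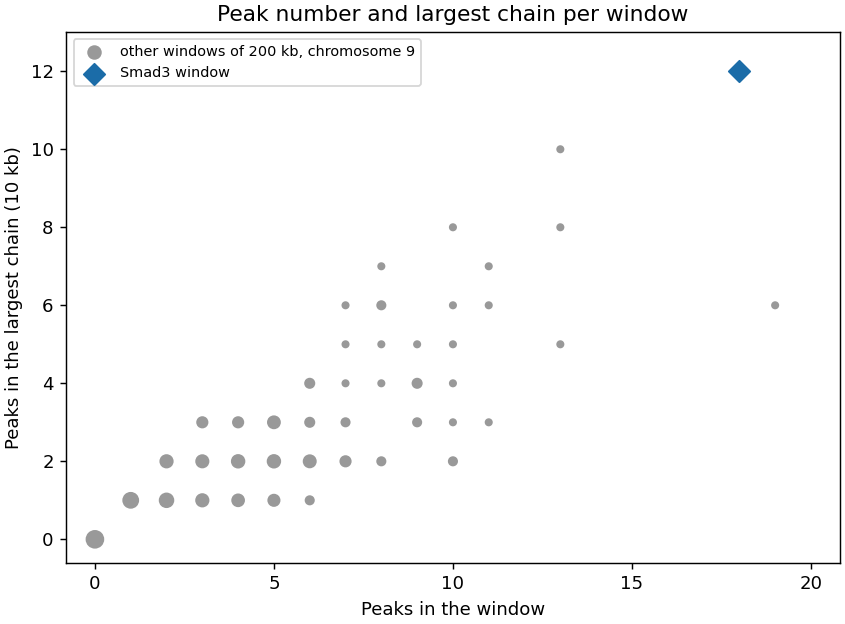
Number of peaks (horizontal axis) and size of the largest chain of peaks at most 10 kb apart (vertical axis) for windows of 200 kb on chromosome 9. Larger grey points stand for more of the 601 other windows, on a log scale of point area. The Smad3 window, with 18 peaks and a chain of 12, lies above every other window on the vertical axis.

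The Smad7 window had the next highest density, 0.0600 peaks per kb, which was 9.87 times that of chromosome 18 (exact 95% Poisson interval 4.51 to 18.7, counting error only). Chromosome 18 is sparsely listed, with 0.00608 peaks per kb, so relative to the whole list the ratio was 7.80. Of 581 other windows of the same length on chromosome 18, 7 held 9 peaks or more (1.20%), and the fullest held 17. The median of the 197 windows with any peak was 2.

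Peaks at Smad7 were spread over several small groups and were narrow. Near the lower edge lay a peak of 294 bp, chr18:75454953-75455246, the narrowest of the 34 and narrower than all but 0.310% of the list. A peak of 433 bp (chr18:75513062-75513494) stood alone after 57.8 kb without a peak. A chain of 3 followed, with 547 bp (chr18:75528557-75529103), 416 bp (chr18:75530103-75530518) and 517 bp (chr18:75536988-75537504), the first 2 of them 999 bp apart. Next came a pair of 356 bp (chr18:75547093-75547448) and 540 bp (chr18:75551953-75552492). A gap of 31411 bp then led to the last pair, 577 bp (chr18:75583904-75584480) and 711 bp (chr18:75587825-75588535).

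The chain of 3 and the pair after it at Smad7 were kept apart by a midpoint distance of 10024.5 bp, just past the 10 kb limit. The largest chain at Smad7 was thus 3 peaks, and 27 of the 581 other windows (4.65%) held a chain at least as large. Most of the 581 held no peak (66.1%). Of the 6 other windows with a count within 2 peaks of Smad7, 4 held a chain of 3 or more, and their median largest chain was 4. The chain at Smad7 was thus not large for its number of peaks. The surroundings of Smad7 differed from those of Smad3. The equal stretch below the Smad7 window held 7 peaks and the one above it 2. The nearest outside peak below, chr18:75438090-75439301, was 1212 bp wide with its midpoint 11.3 kb from the edge, and the nearest above lay 38.7 kb from the edge.

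The Tgfbr2 window held 5 peaks, 0.0278 per kb, and 3.09 times the density of chromosome 9 (exact 95% Poisson interval 1.00 to 7.20, counting error only). Of 668 other windows of the same length, 82 held 5 peaks or more (12.3%), and the upper quartile of the 668 was 2 peaks. The median of the 313 windows with any peak was 3. The 5 peaks all lay in the upper part of the window. A peak of 445 bp (chr9:116069897-116070341) stood alone. A chain of 3 followed after a gap of 13443 bp, with 834 bp (chr9:116083785-116084618), 527 bp (chr9:116090669-116091195) and 420 bp (chr9:116097997-116098416). The first 2 of this chain, 6050 bp apart, were the closest pair in the window. A last single peak of 473 bp (chr9:116123352-116123824) lay 24.9 kb beyond the chain. Chains of 3 or more occurred in 55 of the 668 other windows (8.23%). Of the 136 other windows with a count within 2 peaks of Tgfbr2, 34 held such a chain, and their median largest chain was 2. The nearest listed peak below the first one at Tgfbr2 was 599080 bp away, and the nearest above the last was 123413 bp away, so the 5 peaks were the only ones listed in a stretch of 776 kb. Of the 668 other windows, 355 (53.1%) held no peak.

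The Tgfbr1 window held 2 peaks, 0.0125 per kb, which was 1.55 times the density of chromosome 4 with an exact 95% Poisson interval of 0.188 to 5.59 (counting error only). Of 948 other windows of the same length on chromosome 4, 253 held 2 peaks or more (26.7%). The median of the 361 windows with any peak was 2, the same count as at Tgfbr1. One peak measured 471 bp (chr4:47328382-47328852) and the other 935 bp (chr4:47365514-47366448), and 36.7 kb lay between them. They formed no chain, and 361 of the 948 other windows (38.1%) held at least 1 peak. After the second peak at Tgfbr1, 120558 bp passed before the next listed peak. The receptor windows thus held 5 and 2 peaks beside the 18 at Smad3.

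**Figure D3:**
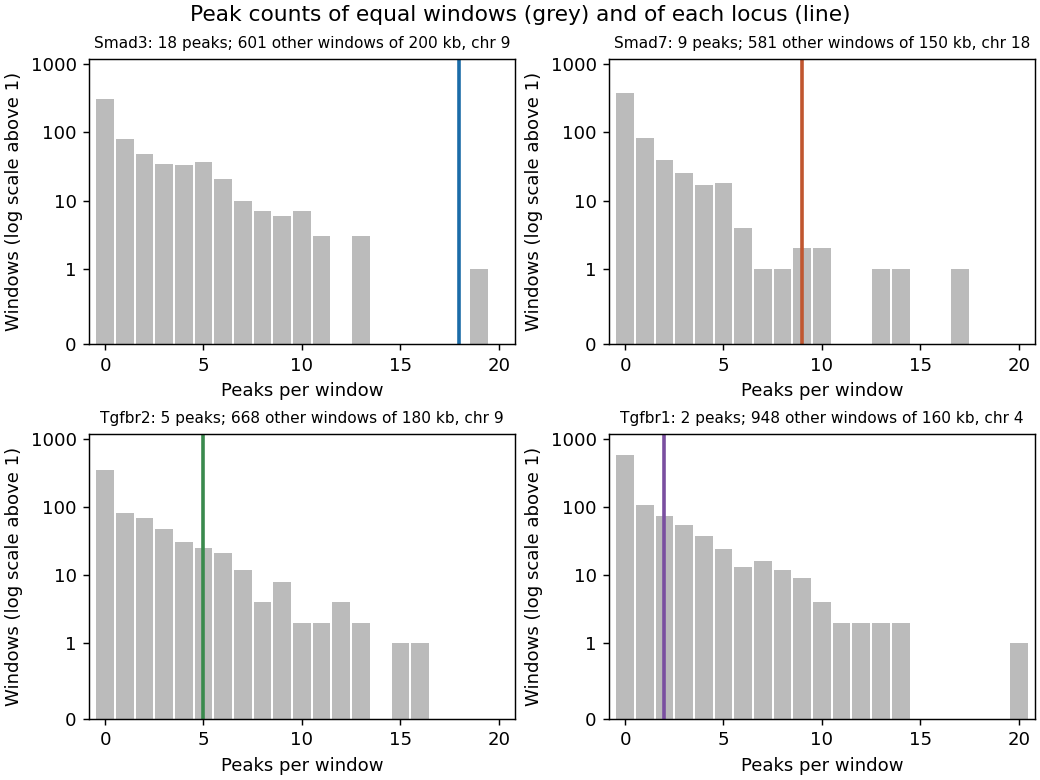
Number of Runx3 peaks in equal windows laid end to end on the same chromosome (grey bars; vertical axis on a log scale above 1) and in each locus (coloured line). Smad3, with 18 peaks, lies beyond all but 1 of 601 windows, and Smad7, with 9, beyond all but 7 that hold as many or more of 581. At Tgfbr2, 82 of 668 windows hold 5 peaks or more, and at Tgfbr1, 253 of 948 hold 2 or more.

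From Smad3 to Smad7 to Tgfbr2, the median width was lower where peaks were fewer. Tgfbr1, with only 2 peaks, did not follow this order. The median width was 695 bp at Smad3 (range 474 to 1215 bp), 517 bp at Smad7 (294 to 711 bp), 473 bp at Tgfbr2 (420 to 834 bp) and 703 bp for the 2 peaks at Tgfbr1. The median of the whole list was 604 bp, and the middle 50% of its peaks measured 506 to 778 bp. At Smad3, 10 of 18 peaks were wider than the list's median, whereas at Smad7 this held for 1 of 9 and at Tgfbr2 for 1 of 5. Over all 34 peaks the median was 555.5 bp and 13 were wider than the list's median. A single peak, the one of 1215 bp at Smad3, exceeded 1000 bp, as did 10.4% of the list.

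Windows with 2 peaks or more gave the background for these medians. Most of them held fewer peaks than Smad3 or Smad7, and a median of few peaks varies more. The shares below are therefore not matched for the number of peaks. On chromosome 9, 60 of 210 windows had a median width at least that of Smad3 (28.6%), and 218 of 230 had one at least that of Tgfbr2 (94.8%). On chromosome 18, 98 of 113 were at least as wide as Smad7 (86.7%), and on chromosome 4, 61 of 253 were at least as wide as Tgfbr1 (24.1%). The Tgfbr2 median lay near the low end of its windows, whose lower quartile was 552 bp, and the Smad7 median lay below the lower quartile of its own, 543 bp. The medians at Smad3 and Tgfbr1 lay in the upper part of theirs, but the one at Tgfbr1 is only the midpoint of 2 peaks, of 471 and 935 bp. The dense Smad7 locus was made of narrower peaks than the dense Smad3 locus.

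**Figure D4:**
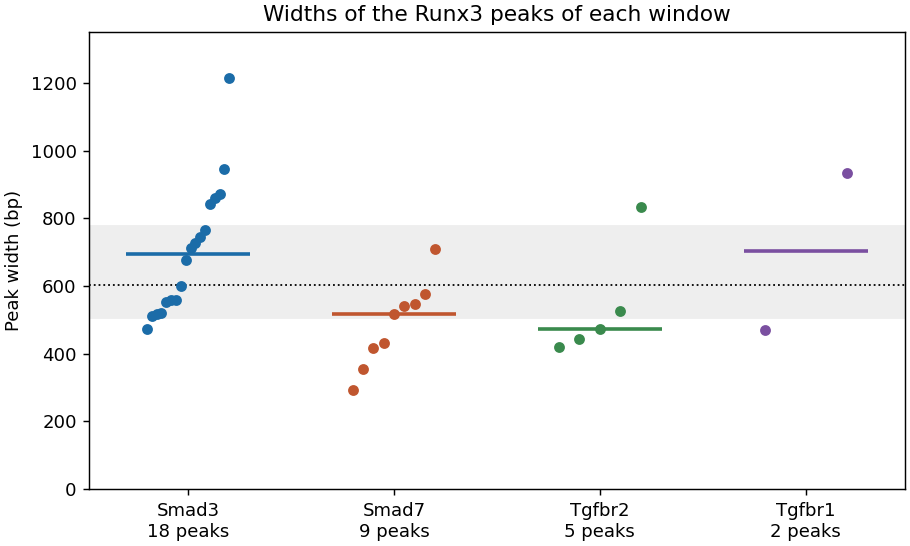
Widths of the Runx3 peaks (bp) in each window. Points are single peaks, ordered by width, and coloured bars are medians. The dotted line and grey band are the median (604 bp) and interquartile range (506 to 778 bp) of all 19647 peaks. Smad3 peaks lie on both sides of the line, whereas 8 of 9 at Smad7 and 4 of 5 at Tgfbr2 lie below it.

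Across the 4 loci, 27 of the 34 peaks (79.4%) belonged to a chain, against 50.4% of the whole list, and 7 stood alone. This share is not independent of the high peak counts at Smad3 and Smad7. Of the 27, 12 came from the single chain at Smad3, which was the 1 chain of 5 or more peaks among the 4 loci. Gaps under 1000 bp occurred 6 times at Smad3, 1 time at Smad7 and 0 times at the receptors. Whether peaks so close are parts of 1 bound region was not tested. Joining them left 12 peaks at Smad3, 8 at Smad7, 5 at Tgfbr2 and 2 at Tgfbr1. The last 3 peaks of the Smad3 chain then formed 1 region of 3840 bp, and the first 2 of the Smad7 chain 1 of 1962 bp. With peaks joined, the Smad3 chain held 7 regions, the density ratio of Smad3 was 7.35 and that of Smad7 9.72.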

How the data were processed

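The series measured Runx3 binding by ChIP-seq. Per the labels' protocols, chromatin from 40000000 NK cells was fixed in 1% formaldehyde and sheared to about 200 bp, and 50 bp reads were aligned with ELAND. The submitters' processing notes name CASAVA 1.8.2 and the build mm9. How peaks were called, at what threshold and with what use of the control is not stated in the sources at hand, nor is the meaning of "to small" in the list's deposited name. The deposited list gives the chromosome, start and end of each peak and no score or count. Starts count from 0 and are printed from 1.

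With Python 3.11.15, numpy 2.4.6 and scipy 1.17.1, peaks were assigned to the 4 windows by midpoint. Equal windows were laid end to end from the first peak of the chromosome, leaving out those overlapping the locus. Chromosome density was taken from first to last peak, and the exact 95% Poisson intervals on counts assume independent peaks. The code was tested on simulated data. The members and lists were chosen with earlier results of these data known. In each window every peak, the widest peak, the closest pair and each chain are named. Alternatives were wider peaks, joined peaks, other chain distances, shifted, non-empty or genome-wide windows, trimmed windows and membership by overlap. The planned count over other genes of the pathway needs gene positions in mm9 and was not run.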

Additional observations from a re-analysis of the deposited data

How the results depend on the processing

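Of 72 recomputed values, 59 stayed within an interval around the main value, or for chains within 1.5 times, and 13 moved further. The intervals were Poisson for ratios, binomial for shares and taken from the ordered widths for medians. This tally is no measure of stability, since many values could hardly move. The smallest gap was 203 bp, so joining at 100 bp kept every peak of the windows, and membership by overlap left their counts unchanged. At Tgfbr1 the interval of the ratio was as wide as 0.188 to 5.59. The density ratio stayed above 1 in 23 of 24 alternatives. The exception was Tgfbr1, at 0.968 with the window trimmed by 10% at each end, which leaves 1 peak. Keeping peaks at or above the list's median width lowered the Smad7 ratio from 9.87 to 2.28, since 1 of its 9 peaks remained, and the Tgfbr2 ratio from 3.09 to 1.18, since 1 of its 5 remained. The share of equal windows with as many peaks then became 0% for Smad3, 25.3% for Smad7, 37.7% for Tgfbr2 and 29.9% for Tgfbr1. Among windows that hold a peak, the share was 3.55% for Smad7, 26.2% for Tgfbr2 and 70.1% for Tgfbr1. Shifting the windows by 50% of their length gave 0% for Smad3. Over all chromosomes it was 0.220% of 12755 windows for Smad3. With neighbours at most 5 kb apart, the largest chain was 6 at Smad3, matched in 0.832% of windows, and 1 at Tgfbr2. At most 20 kb apart it was 14 at Smad3 and 6 at Smad7. The share of windows with as large a chain as Smad7, 4.65% at 10 kb, was 9.98% at 5 kb and 0.861% at 20 kb. With gaps of up to 1000 bp joined, the largest chain was 7 at Smad3, matched in 0.166% of windows. No paired analysis was possible because there is a single Runx3 library. Without read depth, sites that were missed cannot be counted.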
